A study of Mus musculus with 6 samples.

Results

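The 6 genes described here are the mouse serpins Serpine2, Serpine3, Serpini1, Serpinf1, Serpinf2 and Serpinh1, taken by symbol from clades E, F, H and I out of 54532 genes in the deposited table of read counts. They were followed in RNA of the retinal pigment epithelium (RPE) from 3 wild-type (WT) mice and 3 Abca4-/- mice (Abca4KO), all taken 5 h after light onset. The WT mice were 129S1/SvlmJ and the Abca4KO mice carried the Abca4tm1Ght allele. Both lines shared the Leu450 form of Rpe65 and were kept in 12-h cyclic light on standard diet. The WT strain and the mutant line change together with the genotype, so a difference between them and an effect of the Abca4 allele cannot be told apart. The sources used here state neither age nor sex. The 6 genes were selected on the measured Abca4KO and WT values of this comparison, above all the low counts of Serpine3 in Abca4KO, and on their family. Their differences between the genotypes are therefore given as a description, without a p-value.

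Serpins are proteins with a shared fold that expose a loop as bait for a protease. In the inhibitory members the protease cuts the loop, the serpin snaps into a new shape, and the enzyme stays trapped in a covalent complex that receptors of the low density lipoprotein (LDL) receptor family remove. Some serpins have lost this function and act instead as hormones, growth factors or chaperones. In the eye the family is best known for PEDF, the product of Serpinf1, which the RPE secretes and which protects photoreceptors and restrains the growth of choroidal vessels.

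Serpine2 (protease nexin 1) inhibits thrombin, urokinase and plasmin at cell surfaces, and Serpini1 (neuroserpin) inhibits tissue plasminogen activator in neurons. Serpine3 is the least known of the 6, and its gene has been lost in several mammals with poor eyesight. Serpinf2 encodes alpha-2-antiplasmin, a plasmin inhibitor made mainly by the liver. Serpinf1 and Serpinh1 are not inhibitors. Serpinh1 encodes HSP47, which binds procollagen in the endoplasmic reticulum.

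The start regions of the 6 genes differed in their sequence. RefSeq windows on GRCm38.p6, from 250 bases before to 50 bases after the start, were matched by symbol for all 6. Of these, 4 are shown as the extremes of base composition and for the neighbours discussed below. They are written 5′ to 3′ on the strand of the gene, with capitals for the searched motifs. The Serpine2 window (chr1:79858616-79858915, minus strand) was the richest in CpG dinucleotides and the Serpinf1 window (chr11:75422574-75422873, minus strand) the poorest. The Serpine3 window (chr14:62663417-62663716, plus strand) held no searched motif, nor did that of Serpinf2, which is not shown. The Serpini1 window (chr3:75557243-75557542, plus strand) lies back to back with that of Pdcd10. The last 50 bases of the Serpini1 and Serpinf2 windows are in no GENCODE M21 transcript of these genes, and the deposited Serpini1 gene starts at 75557547, past the end of its window. The 50 bases after the start therefore hold for the RefSeq models of these 2 genes and not for the counted ones.
Serpine2: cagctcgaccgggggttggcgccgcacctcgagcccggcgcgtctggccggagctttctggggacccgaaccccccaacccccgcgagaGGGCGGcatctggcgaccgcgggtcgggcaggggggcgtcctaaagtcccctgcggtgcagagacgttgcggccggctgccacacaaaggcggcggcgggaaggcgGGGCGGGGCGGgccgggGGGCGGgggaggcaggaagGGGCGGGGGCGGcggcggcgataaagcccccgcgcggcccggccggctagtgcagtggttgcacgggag
Serpinf1: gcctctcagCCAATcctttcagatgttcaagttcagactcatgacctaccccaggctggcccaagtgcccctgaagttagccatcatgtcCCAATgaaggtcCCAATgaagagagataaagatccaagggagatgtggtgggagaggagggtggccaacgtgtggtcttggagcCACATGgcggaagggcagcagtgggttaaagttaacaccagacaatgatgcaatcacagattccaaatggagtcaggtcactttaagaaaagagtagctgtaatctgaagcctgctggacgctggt
Serpine3: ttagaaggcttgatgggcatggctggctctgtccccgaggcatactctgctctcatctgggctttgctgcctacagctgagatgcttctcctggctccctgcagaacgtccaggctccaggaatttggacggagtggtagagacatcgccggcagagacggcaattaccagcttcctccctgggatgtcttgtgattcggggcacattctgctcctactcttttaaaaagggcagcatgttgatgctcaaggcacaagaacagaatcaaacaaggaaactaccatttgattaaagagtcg
Serpini1: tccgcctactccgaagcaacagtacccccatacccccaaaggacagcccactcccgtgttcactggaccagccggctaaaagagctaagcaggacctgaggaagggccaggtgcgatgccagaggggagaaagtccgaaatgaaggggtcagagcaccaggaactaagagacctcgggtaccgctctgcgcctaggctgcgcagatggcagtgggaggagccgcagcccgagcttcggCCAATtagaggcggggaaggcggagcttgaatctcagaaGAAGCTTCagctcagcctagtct

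The Serpine2 window held 41 CpG dinucleotides at 77.7% G and C, more than 96.5% of the 32851 RefSeq windows of the same length, whose median was 7. Serpinf1 held 3, Serpinf2 6, Serpine3 8, Serpini1 15 and Serpinh1 16. Motifs were searched on both strands. The GC box GGGCGG, found in 35.7% of all windows, occurred 6 times in Serpine2, with 1 base shared between a pair of them, and 1 time in Serpinh1. The CCAAT box CCAAT, found in 37.4% of windows, occurred 3 times in Serpinf1 and 1 time in Serpini1. The E-box CATGTG, present in 14.2% of windows, was found in that of Serpinf1, written there as CACATG on the gene's strand. A heat shock element, searched as GAANNTTC or TTCNNGAA and present in 15.1% of windows, occurred in Serpini1 only among the 6. The E-box CACGTG (7.15% of windows), the TATA box TATAAA (13.6%) and the OTX site TAATCC (7.06%) matched in none of the 6.

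The libraries held between 17047286 and 19841307 counts, so that 3 counts, used here as the floor, equal between 0.152 and 0.174 CPM, the count of a gene scaled to a common library size. Floors cover counting error only. Abca4 measured 932 to 968 CPM in WT and 32.6 to 39.1 CPM in Abca4KO, so the libraries matched their labels. All 15 RPE markers had counts, with summed levels of 35674 to 45894 CPM in WT and 42752 to 45041 CPM in Abca4KO. WT 2 stood apart, with 4086 CPM summed over 17 interferon-induced genes against 235 to 487 CPM in the other 5 libraries and the lowest RPE marker sum. Abca4KO 1 held the most rod transcript, with 3682 CPM over 15 markers against 742 to 1942 CPM in the others. In bulk RNA, fewer cells of a type and less RNA per cell cannot be told apart.

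Serpine3 was the member that differed most. It measured 43.2, 73.4 and 73.4 CPM in WT 1, 2 and 3, and 16.2, 19.7 and 15.0 CPM in Abca4KO 1, 2 and 3. Every Abca4KO library lay below every WT library, and WT 1 was the lowest of its group. The means were 63.3 ± 17.4 and 16.96 ± 2.45 CPM (SD, n = 3 each), a 3.73-fold lower level in Abca4KO with a log2 fold change of -1.90 (SE 0.22). The raw counts behind these values were 825, 1368 and 1348 in WT against 319, 382 and 258 in Abca4KO, far above the floor.

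Serpine2, in contrast, had its highest values in Abca4KO. It measured 150.8, 194.8 and 115.7 CPM in WT 1, 2 and 3, and 182.7, 242.5 and 234.2 CPM in Abca4KO 1, 2 and 3. WT 2 lay above Abca4KO 1, so the genotypes overlapped. The means were 153.8 ± 39.6 and 219.8 ± 32.4 CPM (SD, n = 3 each), and the log2 fold change was 0.52 (SE 0.20). Without WT 2 and Abca4KO 1 it was 0.83. These are the highest WT and the lowest Abca4KO library of Serpine2, so leaving them out raises the difference by construction. Without WT 3, the lowest WT library, the log2 fold change was 0.35.

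Serpini1 was the weakest transcript of the 6 per kb of gene length, though its 312 counts over all libraries exceeded the 263 of Serpinf2. Its raw counts were 34, 39 and 39 in WT 1, 2 and 3, and 95, 38 and 67 in Abca4KO 1, 2 and 3, or 1.999 ± 0.190 and 3.56 ± 1.46 CPM (SD, n = 3 each). The WT libraries lay close together, while Abca4KO 2 sat within the WT range and the other Abca4KO libraries above it. The log2 fold change of 0.83 (SE 0.38) became 0.55 without Abca4KO 1 and 1.13 without Abca4KO 2. Abca4KO 1 was also the library with the most rod transcript. The summed level of 13 inner retinal neuron markers was 373 to 433 CPM in Abca4KO and 395 to 479 CPM in WT, with none of the 13 at 0 over the 6 libraries. The part of either cell type in the Serpini1 values was not tested.

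Serpinf1, the PEDF gene, measured 124.7, 128.6 and 96.3 CPM in WT 1, 2 and 3 and 121.6, 167.3 and 134.6 CPM in Abca4KO 1, 2 and 3. The ranges overlapped, with Abca4KO 1 below WT 1 and WT 2. Means were 116.5 ± 17.6 and 141.2 ± 23.6 CPM (SD, n = 3 each), and the log2 fold change was 0.28 (SE 0.15). It became 0.14 without Abca4KO 2, the highest Abca4KO library. Without WT 2 and Abca4KO 1, the highest WT and the lowest Abca4KO library, it became 0.44.

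Serpinf2 lies 9031 bases from Serpinf1 on the same strand of chromosome 11 and had the opposite sign. Its raw counts were 44, 89 and 49 in WT 1, 2 and 3 and 32, 21 and 28 in Abca4KO 1, 2 and 3. The groups did not overlap, and WT 2 was the highest library. The means were 3.25 ± 1.34 and 1.44 ± 0.313 CPM (SD, n = 3 each), with a log2 fold change of -1.17 (SE 0.39) that became -0.78 without WT 2.

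Serpinh1 was the steadiest member among the WT libraries, at 104.6, 111.1 and 102.5 CPM in WT 1, 2 and 3, a coefficient of variation of 4.23%. Abca4KO 1 measured 106.1 CPM, inside the WT range, while Abca4KO 2 and 3 both measured 127.9 and 127.8 CPM. The means were 106.1 ± 4.49 and 120.6 ± 12.5 CPM (SD, n = 3 each), and the log2 fold change was 0.19 (SE 0.10).

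**Figure D1:**
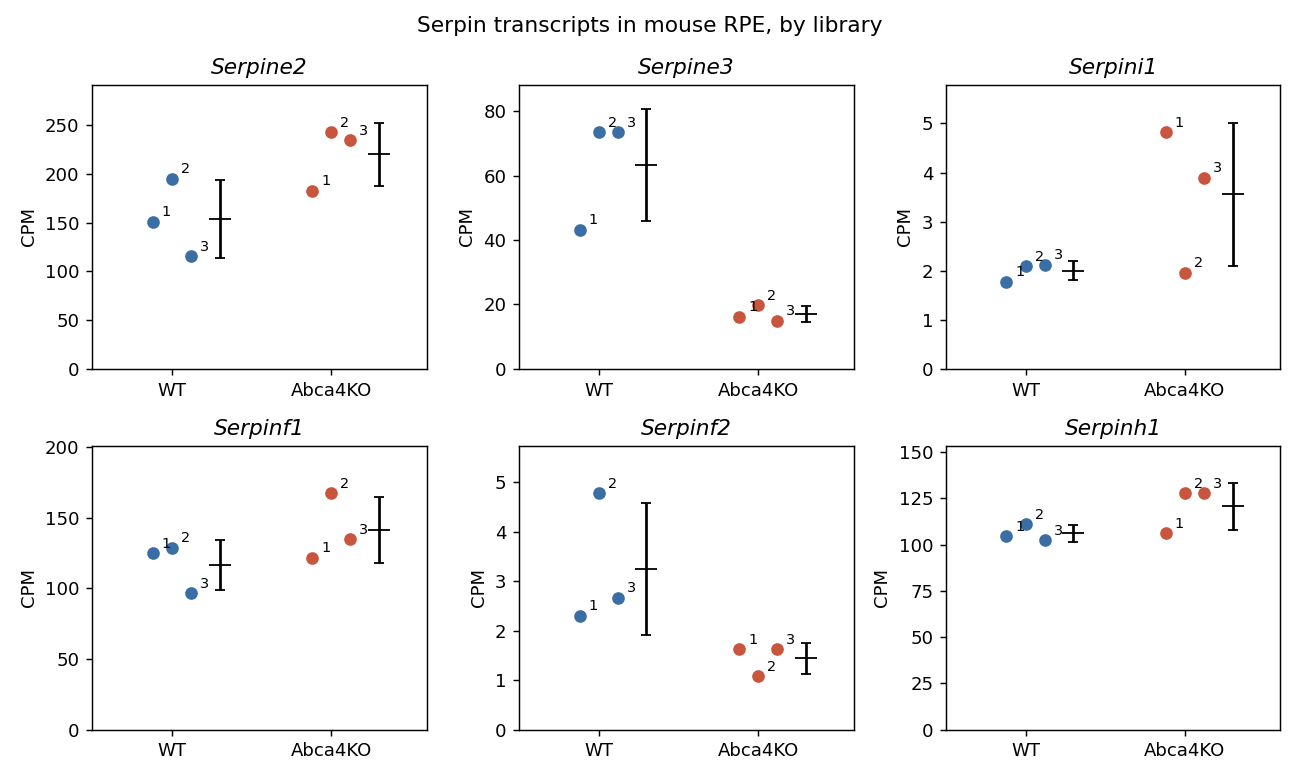
CPM of the 6 serpin genes (y axis, linear from 0, a separate scale per gene) in the 3 WT and 3 Abca4KO libraries (points, numbered by replicate), with mean and SD as the bar beside them. Serpine3 at 15.0 to 19.7 CPM in Abca4KO and Serpinf2 lie below all WT libraries, while the other 4 genes overlap between the genotypes.

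When all 17340 tested genes were fitted with edgeR's quasi-likelihood model, 8 of them (0.0461%) had an adjusted p under the threshold of 0.05, and 0 of the 6 serpins did. At an unadjusted p under 0.05 there were 3 of the 6 (Serpine2, Serpine3 and Serpinf2), against 7.02% of all genes. With DESeq2, 1 of the 6 passed, Serpine3, against 0.701% of the 16269 genes to which DESeq2 gave an adjusted p, and with limma-voom 0 of the 6 against 0.179%. The genotypes did not overlap, with Abca4KO lower, for 2 of the 6 (Serpine3 and Serpinf2) against 6.85% of all tested genes, and with Abca4KO higher for 0 of the 6 against 5.93%. The choice of the genes rested on this comparison, and nothing is read from these counts.

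Serpine2 and Serpinf1 reached their highest value in Abca4KO 2, and Serpinh1 was nearly equal in Abca4KO 2 and 3 (127.9 and 127.8 CPM). Abca4KO 2 also had the largest sum over 14 fibroblast and sclera markers, a cell type that makes all 3 transcripts. It was 2579 CPM, against 2152 CPM in Abca4KO 3. The sums were 1777 to 2070 CPM in WT and 2092 to 2579 CPM in Abca4KO, without overlap, 3 of the 14 markers did not overlap with Abca4KO higher and 0 with Abca4KO lower (against 5.93% and 6.85% of all tested genes), and none of the 14 was at 0. Endothelial markers (15) summed to 499 to 821 CPM in WT and 812 to 1214 CPM in Abca4KO, which overlapped, with none at 0. All 15 had a log2 fold change above 0, against 47.8% of all tested genes, with a median of 0.61. In edgeR 9 of the 15 had an unadjusted p under 0.05, against 7.02% of all genes, and 0 passed the threshold. Of the 15, 4 did not overlap with Abca4KO higher and 0 with Abca4KO lower. Mural cell markers (11) summed to 596 to 756 and 797 to 908 CPM, with 3 of 11 not overlapping with Abca4KO higher, 1 with Abca4KO lower (Cspg4) and none at 0. Sums overlapped for 12 Muller glia and astrocyte markers (8860 to 9401 and 8352 to 10766 CPM), 13 macrophage markers (882 to 1665 and 1048 to 1501 CPM) and 9 melanocyte markers (2915 to 4265 and 4116 to 5009 CPM), with none at 0. Of the melanocyte markers 3 did not overlap with Abca4KO higher and 1 with Abca4KO lower (Kit), of the macrophage markers 1 and 1, and of the glial markers 1 and 1. An unadjusted p under 0.05 in edgeR was found for 3 of the 14 fibroblast and 3 of the 11 mural markers. It was found for 4 of the 9 melanocyte, 1 of the 13 macrophage and 2 of the 12 glial markers. The part of these cell types in the 3 serpin values was not tested.

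Compared per kb of gene length, the 6 genes fell into an abundant and a sparse group. Serpinf1 had 54.6 CPM per kb on average over the 6 libraries (40.8 to 70.9), Serpinh1 46.4 (41.9 to 52.3), Serpine3 28.6 (10.7 to 52.4) and Serpine2 22.5 (13.96 to 29.3). Serpinf2 had 1.01 (0.466 to 2.06) and Serpini1 0.381 (0.244 to 0.662). In this order only Serpine2 and Serpinf2 are neighbours whose ranges did not overlap. Serpinf1 ranked at 796 and Serpinh1 at 946 of the 17340 tested genes, Serpinf2 at 13512 and Serpini1 at 15766.

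The place of Serpine3 depended on the genotype. By the deposited length, its WT mean of 45.2 CPM per kb lay between those of Serpinf1 (49.4) and Serpinh1 (43.4), and it was the highest of the 6 in WT 3. In the 3 Abca4KO libraries it ranked below Serpinf1, Serpinh1 and Serpine2, at 10.7 to 14.1 CPM per kb against 22.0 to 29.3 for Serpine2. The position of Serpine2, and that of Serpine3 in WT, rest on the length used. The deposited length of Serpine2, 8287 bases, counts the exons of all its transcripts, whereas its longest transcript has 3393. With the longest transcript Serpine2 measured 55.0 CPM per kb, above Serpinh1 at 49.8 and below Serpinf1 at 70.3, and Serpini1 measured 0.679. By that length Serpinf1 lay above Serpine3 in WT 3 (52.6 against 52.3), and Serpine2 lay above Serpine3 in WT 1 (44.4 against 30.8) and WT 2 (57.4 against 52.4). In Abca4KO Serpine3 stayed below Serpinf1, Serpinh1 and Serpine2.

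**Figure D2:**
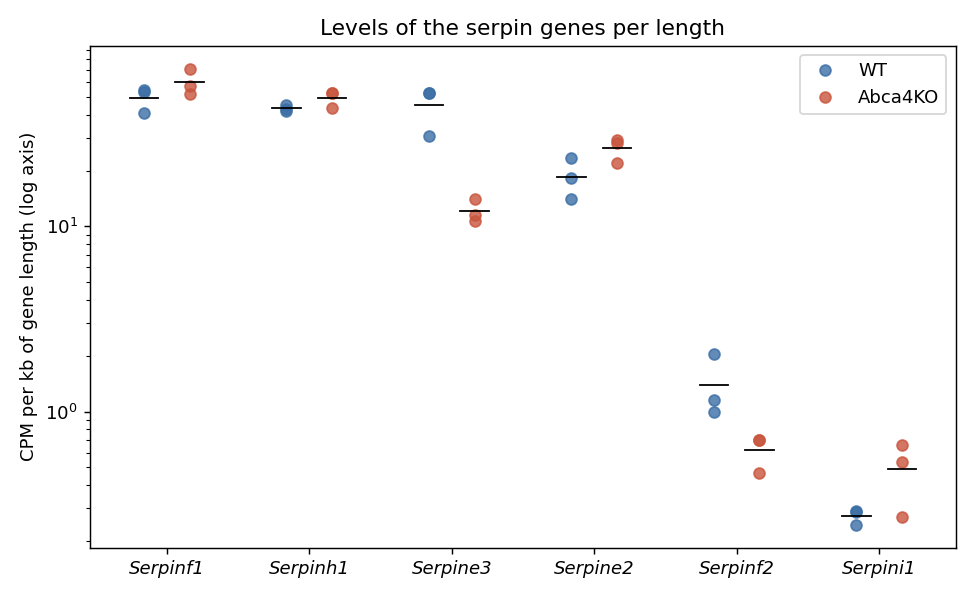
Level of each serpin gene in CPM per kb of deposited gene length (y axis, log scale), with 3 WT and 3 Abca4KO libraries as points and group means as black lines. Serpinf2 and Serpini1 lie below 2.1 CPM per kb and the other 4 genes above 10 in every library.

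Serpine3 shares its locus with another gene. It spans chromosome 14 from 62663667 to 62692243 on the plus strand (mm10), and the end of Ints6, a subunit of the Integrator complex that processes small nuclear RNAs, runs through it on the minus strand. In GENCODE M21 348 of the 1402 exonic bases of Serpine3 are also exonic in Ints6. The sources used here do not state whether the counting used strand, so the Serpine3 count is uncertain by the reads of this stretch. Ints6 measured 30.9, 42.1 and 37.9 CPM in WT 1, 2 and 3, and 30.3, 33.0 and 21.7 CPM in Abca4KO 1, 2 and 3, with overlapping genotypes (log2 fold change -0.38, SE 0.18, edgeR adjusted p = 0.732). Serpine3 had 1.40, 1.74 and 1.93 counts per Ints6 count in WT and 0.534, 0.597 and 0.690 in Abca4KO. Fam124a, the nearest tested gene on the left side, had a log2 fold change of 0.00.

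Serpini1 and Pdcd10, which encodes a protein of the cerebral cavernous malformation complex, start 641 bases apart in RefSeq on opposite strands of chromosome 3. Pdcd10 measured 26.1 to 29.3 CPM in WT and 26.6 to 26.99 CPM in Abca4KO, all Abca4KO libraries lying within the WT range (log2 fold change -0.03, SE 0.09). Serpini1 also lies on the chromosome of Abca4, 46.4 Mb away (75557547 to 75643495, plus strand).

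Beside the pair Serpinf1 (75409769 to 75422701) and Serpinf2 (75431732 to 75439591) on the minus strand of chromosome 11, Wdr81 lies 1353 bases from Serpinf2 and measured 41.8 to 44.3 CPM in WT and 40.6 to 47.4 CPM in Abca4KO. Smyd4, on the other side at 4064 bases from Serpinf1, had a log2 fold change of -0.29 (SE 0.11), with all Abca4KO libraries below the WT libraries. Serpine2 (chromosome 1, 79794197 to 79861180, minus strand) has Mrpl44 as its nearest tested gene on the left (log2 fold change -0.24) and the pseudogene Gm5529 on the right (0.06). Serpinh1 (chromosome 7, 99345376 to 99353239, minus strand) lies between Map6 (0.39) and Gdpd5 (0.09). Of the 18 tested genes within 100 kb of the 6 serpins that are no serpins, 0 passed the threshold in edgeR, DESeq2 or limma-voom. In edgeR 2 of the 18 had an unadjusted p under 0.05, against 7.02% of all tested genes.

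Apart from Ints6, the longest stretch of at least 90% identity between a member's longest transcript and another gene was 270 bases, in Serpine2. Serpinf1, Serpinf2 and Serpinh1 had none and Serpini1 had 1 of 124 bases.

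The rest of the family was examined for comparison. Of 55 other serpin genes, 32 had counts and 14 passed the filter on low counts. None of the 14 passed the threshold in edgeR or limma-voom, nor any of the 10 with an adjusted p in DESeq2. In edgeR 1 of the 14, Serpina3n, had an unadjusted p under 0.05, against 7.02% of all tested genes. The median log2 fold change of the 14 was -0.09, beside -0.01 over all tested genes. It turned to 0.49 without WT 2, where that over all genes was 0.01, to 0.55 without WT 2 and Abca4KO 1, and to 0.27 with limma-voom. Without WT 3, WT 1, Abca4KO 2 or Abca4KO 1 it was -0.25, -0.17, -0.20 or -0.15, and without Abca4KO 3 0.00. The libraries included thus set its sign. The 6 genes described here took 34.5% to 44.3% of all serpin counts per library.

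Serpina3n, an inhibitor of granzyme B and a marker of reactive glia, averaged 174.1 ± 38.6 CPM over WT and 266.3 ± 82.0 CPM over Abca4KO libraries. Serping1, the C1 inhibitor of complement, measured 234.6 ± 116.7 and 219.7 ± 45.4 CPM, with WT 2 highest at 367 CPM. Serpinb6a, an intracellular inhibitor, measured 147.97 ± 4.51 and 156.8 ± 5.76 CPM, and its paralog Serpinb6c 2.30 ± 0.133 and 3.52 ± 0.455 CPM, the latter without overlap (SD, n = 3 each).

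Serpina3f and Serpina3g belonged to WT 2 above all. WT 2 held 45.7 and 76.5 CPM of them, Abca4KO 2 held 5.78 and 12.3 CPM, and the other 4 libraries at most 0.639 and 5.17 CPM. Serpinb9, which inhibits granzyme B in immune cells, was also highest in WT 2, at 76.4 CPM against 32.4 to 45.7 CPM elsewhere. Close paralogs of clades A and B can share reads, so their counts are uncertain.

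Several further serpins of at least 1 CPM in a genotype were sparse. Serpinb1a and Serpinb8 measured 3.77 to 8.17 CPM, and Serpinb6b, Serpinb7 and Serpinb11 0.051 to 8.32 CPM. Serpinb5 did not pass the filter and had 4.56 CPM in WT 2 and at most 0.762 CPM in the others. Serpini2, the other clade I gene, had 0 counts in all 6 libraries.

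**Figure D3:**
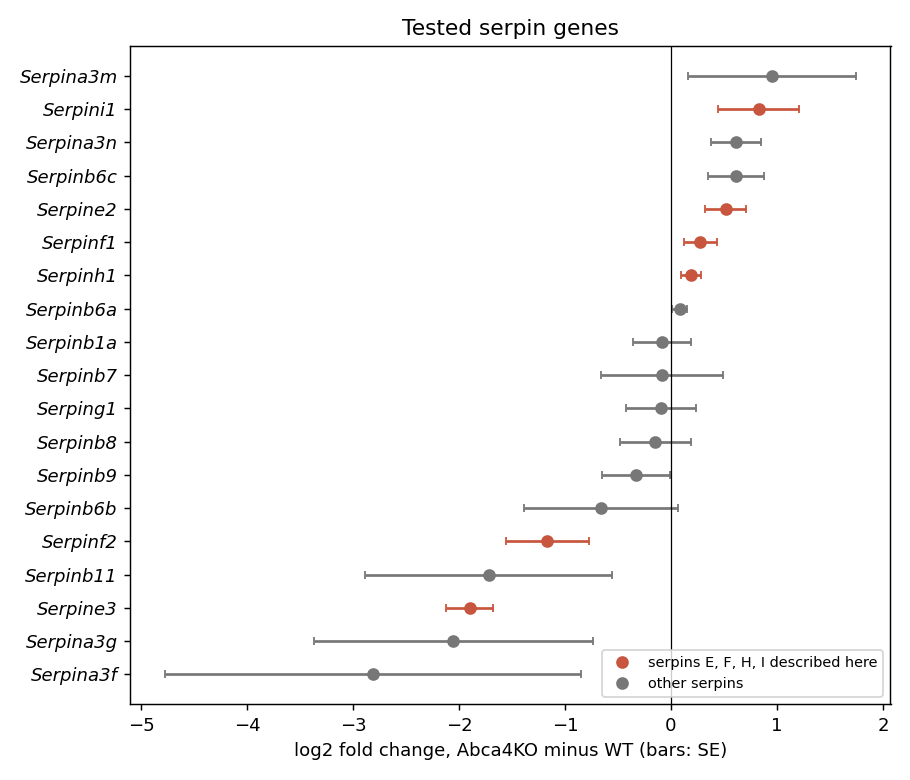
Log2 fold change (x axis, Abca4KO minus WT, bars give the SE) of tested serpin genes, with the 6 described here in red and other serpins in grey (1 of the 14 others is not shown). Serpine3 is at -1.90 with an SE of 0.22, and Serpina3f and Serpina3g, which are high in WT 2, have the widest bars.

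A list of proteases, not all of them targets of these serpins, with receptors, cofactors and inhibitors, gave 23 tested genes of 33. In edgeR and limma-voom 0 of the 23 passed, as did 0 of the 22 with an adjusted p in DESeq2. In edgeR 4 of the 23 had an unadjusted p under 0.05, against 7.02% of all tested genes. The median log2 fold change was -0.07, and its sign turned when a library was left out, to 0.16 without WT 2, 0.04 without Abca4KO 1 and 0.25 without both, and to 0.06 with limma-voom. Without WT 1, WT 3 or Abca4KO 2 it was -0.11, -0.12 or -0.12. Plat, the tissue plasminogen activator that neuroserpin inhibits, measured 57.1 ± 2.19 and 54.3 ± 0.458 CPM, and the urokinase gene Plau 8.50 ± 6.44 and 6.99 ± 0.866 CPM. The proenzymes of plasmin and thrombin, Plg and F2, had 3 and 1 counts over all libraries. The 4 genes with the smallest p were Htra1, a secreted protease linked to macular degeneration (64.6 ± 5.54 and 82.9 ± 9.81 CPM), Mmp14, a membrane-bound matrix protease (101.1 ± 10.5 and 127.0 ± 15.5 CPM), Tfpi, the inhibitor of tissue factor (22.4 ± 1.89 and 27.5 ± 2.78 CPM), and S100a10, which docks plasminogen (101.6 ± 24.9 and 60.6 ± 18.5 CPM), in WT and Abca4KO respectively (SD, n = 3 each). In each of these 4 the genotypes did not overlap, which their choice by p in this comparison favours. Over the 23 genes 3 did not overlap with Abca4KO higher and 3 with Abca4KO lower, Plat among the latter. The shares of all tested genes were 5.93% and 6.85%.

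The receptors that clear serpin complexes gave 12 tested genes of 13, with a median log2 fold change of -0.17. This median came closer to 0 without WT 2 (-0.03), Abca4KO 2 (-0.08) or WT 3 (-0.09), without WT 2 and Abca4KO 1 (-0.02) and with limma-voom (-0.05). In edgeR 0 of the 12 passed and 3 had an unadjusted p under 0.05, against 7.02% of all tested genes. DESeq2 called 3 lower (Lrp1, Lrp2 and Sorl1), against 0.701% of genes called in either direction, and limma-voom 1 (Lrp2), against 0.179%. Sorl1, a sorting receptor of the same family, averaged 457 ± 5.59 CPM over WT and 367 ± 21.3 CPM over Abca4KO libraries (SD, n = 3 each), without overlap (edgeR adjusted p = 0.526). Lrp1, the main receptor for serpin-protease complexes, had a log2 fold change of -0.38 (SE 0.08) and Lrp2 one of -0.43 (SE 0.08). These 2 did not overlap either. Over the 12 genes 3 did not overlap with Abca4KO lower and 0 with Abca4KO higher, against 6.85% and 5.93% of all tested genes. Lrpap1, the chaperone of these receptors, measured 194.8 ± 7.64 and 232.7 ± 35.6 CPM (SD, n = 3 each) and overlapped.

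All 18 genes of the list of PEDF receptors and vascular growth factors were tested, with a median log2 fold change of 0.15, or 0.24 without Abca4KO 1. In edgeR 0 of the 18 passed and 3 had an unadjusted p under 0.05, against 7.02% of all tested genes. DESeq2 called 1, Thbs1, against 0.701% of genes, and limma-voom 0. Thbs1, an anti-angiogenic matrix protein, measured 1533 ± 209.1 and 1060 ± 170.1 CPM in WT and Abca4KO. The endothelial receptor genes Kdr and Tek measured 55.9 ± 5.81 and 84.1 ± 28.6 CPM, and 15.97 ± 4.59 and 26.3 ± 8.18 CPM. The 15 endothelial markers given above all had a log2 fold change above 0, and their part in these values was not tested. Angpt1, a ligand of Tek, measured 47.1 ± 9.01 and 61.0 ± 7.32 CPM (SD, n = 3 each). Of the receptors proposed for PEDF itself, the lipase gene Pnpla2 had a log2 fold change of 0.05 and the laminin receptor Rpsa 0.00. Plxdc1 had 0.18, Plxdc2 0.11, Atp5b 0.03 and Lrp6 -0.16. Among these receptors Plxdc1 did not overlap, with Abca4KO higher, nor did Lrp6, with Abca4KO lower. Over the 18 genes 2 did not overlap with Abca4KO higher (Plxdc1 and Kdr) and 2 with Abca4KO lower (Lrp6 and Thbs1). The shares of all tested genes were 5.93% and 6.85%. The growth factor gene Vegfa had a log2 fold change of 0.06.

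Genes that process procollagen with HSP47 were mostly on the positive side. Of 28 tested genes, 24 had a log2 fold change above 0, against 47.8% of all tested genes, and the median was 0.12. It was 0.06 without Abca4KO 2, 0.07 without WT 3, 0.19 without Abca4KO 1, 0.20 without WT 2, 0.26 without WT 2 and Abca4KO 1, and 0.19 with limma-voom. In edgeR 0 of the 28 passed and 5 had an unadjusted p under 0.05, against 7.02% of all tested genes. DESeq2 called 1, Lox, as higher, against 0.701% of genes called in either direction, and limma-voom 0. Lox, which crosslinks collagen, averaged 28.1 ± 4.43 CPM over WT and 43.5 ± 5.24 CPM over Abca4KO libraries. Crtap, of the prolyl 3-hydroxylation complex, measured 60.4 ± 2.56 and 73.3 ± 6.75 CPM, Kdelr2, which returns chaperones such as HSP47 to the endoplasmic reticulum, 53.7 ± 3.30 and 64.5 ± 2.93 CPM, and the lysyl hydroxylase gene Plod1 42.4 ± 1.78 and 51.5 ± 7.17 CPM (SD, n = 3 each). The genotypes did not overlap with Abca4KO higher in 6 of the 28 genes, against 5.93% of all tested genes, and with Abca4KO lower in 1, Mia3, against 6.85%. The fibroblast marker sums given above did not overlap either, and their part was not tested.

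**Figure D4:**
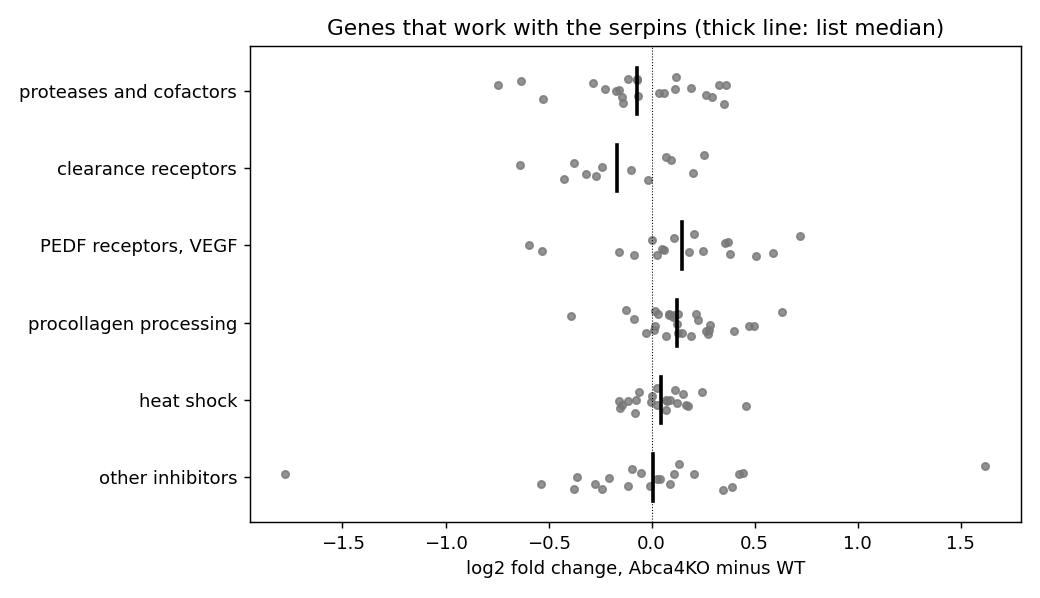
Log2 fold change (x axis, Abca4KO minus WT) of each tested gene (points) in 6 lists of genes related to the serpins, with the list median as a thick line. Medians lie between -0.17 for the clearance receptors and 0.15 for the PEDF and vascular list, the former at -0.03 when WT 2 is left out, and no gene shown passed the threshold in edgeR.

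The genes most like each serpin over the 6 libraries were found by Pearson's r of log2 CPM among 11496 or 11497 genes of at least 5 CPM, given as a description over 6 points that share depth and tissue makeup. Serpine3 was nearest to Pcdhgb5 (r = 0.993), Mindy3 (0.992) and Ccdc50 (0.992). Serpine2 was nearest to Rftn1 (0.999), Mgp (0.995) and Capn15 (0.994). Mgp, the matrix Gla protein of connective tissue, averaged 169.2 CPM over WT and 251.3 CPM over Abca4KO libraries. Serpinf1 was nearest to Lgals1 (0.995), Cxcr4 (0.992) and Rbpms (0.991), and Serpinf2 to Piezo1 (0.993), Baz2a (0.993) and Limd1 (0.992). Serpinh1 was nearest to the mitochondrial reductase gene Marc2 (0.996), Nol12 (0.995) and Ighg2b (0.987). The immunoglobulin gene Ighg2b had 66.2 and 50.3 CPM in Abca4KO 2 and 3 and 0.708 to 1.88 CPM in the other 4 libraries, so its likeness is that of 2 libraries against 4. Heatr3 (0.968) and Fdx1 (0.962) were among the 3 nearest to Serpini1. Between the members, the highest r were 0.898 for Serpine2 and Serpinf1, 0.885 for Serpine2 and Serpinh1, 0.810 for Serpinf1 and Serpinh1 and 0.844 for Serpine3 and Serpinf2. Serpine3 had an r of -0.684 with Serpine2, -0.566 with Serpinf1, -0.618 with Serpinh1 and -0.687 with Serpini1. Each r runs over both genotypes, so it includes the differences on which the members were selected.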

How the data were processed

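The authors deposited a table of raw counts, without normalization, for 54532 genes in 6 libraries. The submitters' processing notes name STAR, HTSeq and mm10 but no versions. The sources used here do not state the use of strand. The deposited lengths and coordinates of the 6 serpins equal those of GENCODE M21. RefSeq promoters are on GRCm38.p6, and protein sequences were not used here.

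Genes were filtered with filterByExpr (minimum count 10), which kept 17340, all 6 serpins among them. After TMM scaling, the genotypes were compared over the 6 libraries with the 2-sided quasi-likelihood test of edgeR 4.0.16 (R 4.3.3), with Benjamini-Hochberg adjustment over all genes and a threshold of 0.05. The SE was derived from the log2 fold change and the square root of its F statistic. Alternatives used DESeq2 1.42.0 and limma 3.58.1, and copies were searched with blastn 2.17.0. Each library is 1 mouse.

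Members and lists were chosen with earlier results of these data known. Named were the 6 serpins, other serpins of at least 1 CPM, the nearest and overlapping neighbours, the 4 smallest p of each related list, and the 3 most similar genes. Of the genes these rules name, 2 are not reported here. Plat, Plau, Plg, F2, Pnpla2, Rpsa, Plxdc1, Plxdc2, Vegfa and Serpini2 were named after their values were seen, as were Mia3, Cspg4, Kit, Lrp6 and Atp5b.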

Additional observations from a re-analysis of the deposited data

How the results depend on the processing

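The sign of the log2 fold change held for each of the 6 serpins in all 14 alternatives (2 other scalings, 2 other filters, DESeq2, limma-voom with sample weights, the replicate block, each library left out, and WT 2 and Abca4KO 1 left out together). Serpine3 ranged from -2.11 to -1.64, Serpinf2 from -1.36 to -0.75, Serpine2 from 0.35 to 0.83, Serpini1 from 0.55 to 1.13, Serpinf1 from 0.14 to 0.44 and Serpinh1 from 0.14 to 0.29. With 1 or 2 libraries left out the ranges were -2.11 to -1.76 for Serpine3 and 0.35 to 0.83 for Serpine2. Of the 14 alternatives Serpine3 passed the threshold in 4. These were DESeq2, no filter on low counts, leaving out WT 1, and leaving out WT 2 and Abca4KO 1 together. WT 1 is the lowest WT library of Serpine3, so leaving it out raises the difference by construction. Serpine3 did not pass in the main fit, nor with any other single library left out. In the setting without WT 2 and Abca4KO 1 Serpine2 passed as well (0.83). That setting takes out the highest WT and the lowest Abca4KO library of Serpine2. The replicate numbers are not said to pair mice: same-numbered libraries correlated at 0.17, 0.34 and -0.08 in their deviations from group means, and the replicate block gave -1.87 for Serpine3 and 0.54 for Serpine2 and changed no call among the 6.

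Counts of all genes past the threshold moved more, from 6 higher and 2 lower to 12 and 7 with no filter, 60 and 54 with DESeq2, 14 and 17 with limma-voom, and 118 and 72 without WT 2 and Abca4KO 1. With single libraries left out they were 2 to 6 higher and 1 to 5 lower. The cause was not tested. Among related lists, DESeq2 called 3 clearance receptors lower, limma-voom 1, and DESeq2 1 PEDF or vascular gene lower and 1 procollagen gene higher. With libraries left out, the procollagen list and the inhibitors of other families had 0 to 1 genes higher, the 1 (Lox and Slpi) only without WT 2 and Abca4KO 1 together. With the longest transcript as length, chosen after the data were seen, levels were 55.0 CPM per kb for Serpine2, 70.3 for Serpinf1 and 0.679 for Serpini1. Counts of 21 to 95 per library limit Serpinf2 and Serpini1.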

Other observations

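Protease inhibitors outside the serpin family were counted as well. Of 24 genes 22 were tested, and 0 passed the threshold in edgeR, DESeq2 or limma-voom. In edgeR 4 of the 22 had an unadjusted p under 0.05, against 7.02% of all tested genes. The median log2 fold change was 0.01, with single libraries left out between -0.07 (Abca4KO 2) and 0.09 (WT 3). Wfdc2, a secreted whey acidic protein, averaged 66.96 ± 3.05 CPM over WT and 52.2 ± 0.638 CPM over Abca4KO libraries. Its relative Wfdc1 measured 17.9 ± 0.906 and 24.4 ± 5.72 CPM, and the leukocyte elastase inhibitor Slpi 2.30 ± 0.492 and 7.09 ± 4.10 CPM. Spock1, a matrix proteoglycan that can inhibit proteases, measured 375 ± 36.7 and 289.2 ± 29.0 CPM (SD, n = 3 each). In each of these 4 genes the genotypes did not overlap, which their choice by p in this comparison favours. Over the 22 genes 4 did not overlap with Abca4KO higher and 3 with Abca4KO lower, against 5.93% and 6.85% of all tested genes.

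Serpinh1 is a target of heat shock factor 1, and 22 other genes of that programme were tested. In edgeR, DESeq2 and limma-voom 0 of the 22 passed, and 1 had an unadjusted p under 0.05 in edgeR, against 7.02% of all tested genes. The median log2 fold change was 0.05, and it turned to -0.05 without Abca4KO 2 and was 0.01 without WT 1 and with limma-voom. The co-chaperone gene Hsph1 averaged 45.5 ± 4.58 CPM over WT and 62.5 ± 17.6 CPM over Abca4KO libraries, highest in Abca4KO 2 at 82.5 CPM. Serpinh1, in contrast, was nearly equal in Abca4KO 2 and 3 (127.9 and 127.8 CPM). Hspa8 measured 803 ± 33.2 and 906 ± 83.8 CPM without overlap, the mitochondrial chaperonin gene Hspe1 36.6 ± 3.24 and 43.3 ± 6.90 CPM, and the chaperonin subunit gene Cct2 96.7 ± 6.49 and 86.9 ± 6.57 CPM (SD, n = 3 each). Over the 22 genes 1 did not overlap with Abca4KO higher and 2 with Abca4KO lower, against 5.93% and 6.85% of all tested genes.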
